A study of Mus musculus with 12 samples.

Results

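The comparison of 4T1 tumours that received endothelial extracellular vesicles (EVs) carrying miR-222-3p with tumours that received control EVs rests on 6 of the 12 tumours of the study, 3 in each group, and on 14706 protein-coding genes of 21899 matched. EVs are membrane vesicles that cells release, and 4T1 is a mouse mammary carcinoma line that grows in the immunocompetent BALB/c strain. Female BALB/c mice of 6 to 8 weeks received 100000 4T1 cells under the skin of the right flank. Some days later they began to receive peritumoural EVs, 3 µg at a time and at intervals of 2 days, until the tumours were taken for RNA on day 21. The EVs of every group came from MS-1, a mouse endothelial line, and were electroporated with a double-stranded miRNA mimic. The mimic was miR-222-3p in one group and cel-miR-67, a nematode miRNA, in the control group (ctrl). A further 3 tumours received miR-142-5p EVs and 3 received miR-183-5p EVs, and these were used for a second comparison. No group without EVs is analysed here, so all values describe 1 EV load against another. The tissue is a whole tumour, in which 4T1 cells are mixed with immune cells, fibroblasts, vessels and blood.

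miRNAs are short RNAs that guide Argonaute proteins to messenger RNAs, mostly by pairing of the seed, bases 2 to 8 of the miRNA, with a site in the 3′ untranslated region (UTR). Pairing usually lowers the level or the translation of the target. miR-222-3p and its neighbour miR-221-3p are made from adjacent hairpins on the X chromosome. They are known for repressing the cell cycle inhibitor p27 (Cdkn1b) and the receptor Kit, and are active in vascular endothelium. The sequence below is that of the mouse miRNA whose mimic was delivered, beside that of miR-221-3p, which has the same seed. Both are RefSeq sequences on GRCm38.p6, minus strand, at chrX:19146901-19146923 and chrX:19146307-19146329 respectively, and capitals mark the seed.
miR-222-3p: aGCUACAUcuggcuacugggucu
miR-221-3p: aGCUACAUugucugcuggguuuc
In the same reference, 3 mature mouse miRNAs hold this seed, the third being miR-1928. The seeds of the other 2 delivered miRNAs differ from it, as the next lines show (chr11:87756867-87756887, plus strand, and chr6:30169711-30169732, minus strand).
miR-142a-5p: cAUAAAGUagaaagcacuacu
miR-183-5p: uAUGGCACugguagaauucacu

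The 6 libraries held between 20285968 and 26969322 estimated reads. Transcripts of carcinoma cells were abundant in both groups, with Krt8, an epithelial keratin, at 511 to 732 TPM (a level per transcript length, scaled to a fixed sum per library) in ctrl tumours and 481 to 500 TPM in miR-222-3p tumours. The 3 genes with the most reads per length in ctrl tumours were mt-Atp8, mt-Co3 and Lgals1, a galectin. The libraries also fell into 2 sets by how reads were divided between the mitochondrial gene mt-Co2 and its near-identical nuclear copy Gm28661. Gm28661 received from 0.000621% to 0.324% (95% Wilson interval of the highest, 0.290% to 0.362%) of their summed reads in the 3 miR-222-3p tumours. In the 3 ctrl tumours it received 9.88% (interval 9.70% to 10.1%) to 41.8% (41.4% to 42.1%). Of the other 6 tumours, miR-183-5p tumour 3 was in the low set, with 0.0169%, and 5 in the high set. These intervals cover counting error only. Because all miR-222-3p tumours are in the low set and all ctrl tumours in the high set, set and treatment cannot be told apart in this comparison.

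To find out which tumour genes differed with the miR-222-3p load, each gene was tested with DESeq2 between the 2 groups. Among 14664 genes with an adjusted p-value, 0 passed the threshold of 0.05, a share of 0%. The smallest adjusted p-value was 0.406, that of Plin4. The quasi-likelihood test of edgeR also called 0 genes, with a smallest adjusted p-value of 0.99995. At an unadjusted p-value under 0.05, DESeq2 gave 314 genes (2.14%), of which 162 were higher (1.10%) and 152 lower (1.04%) in miR-222-3p tumours, and edgeR gave 282 (1.92%). The normalised counts of the groups did not overlap for 778 genes (5.29%), with all miR-222-3p tumours above all ctrl tumours for 409 (2.78%) and below them for 369 (2.51%). The median log2 fold change over all genes was −0.01, and the middle 50% of genes lay between −0.11 and 0.10.

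The precision of these values set which differences could have been seen. The median standard error of the log2 fold change was 0.15 for 5437 genes with a mean of at least 1000 counts over the 12 tumours, 0.20 for 5897 genes with 100 to 1000 counts and 0.55 for 3372 genes with fewer. For 11538 genes (78.5%) the 95% interval of the fold change lay within 1 log2 unit of 0. Expression was about as similar between the groups as within them. Over 11334 genes the median Spearman correlation was 0.973 between miR-222-3p tumours (3 pairs), 0.973 between ctrl tumours (3 pairs) and 0.975 between the groups (9 pairs), as a description across genes.

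**Figure D1:**
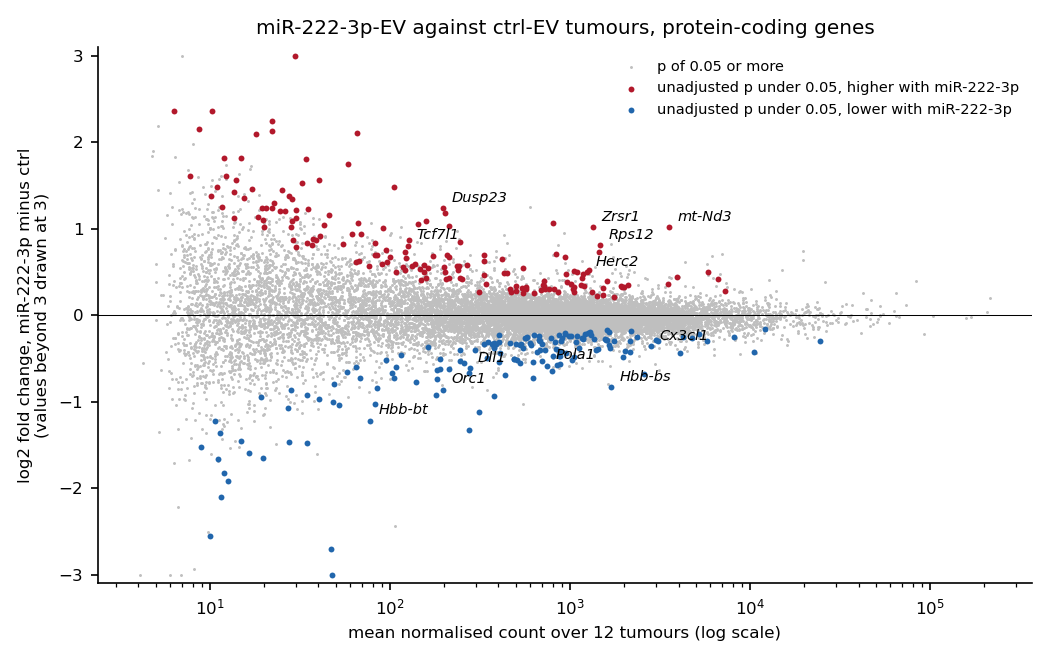
Log2 fold change of each tested gene, miR-222-3p minus ctrl (vertical axis, values beyond 3 drawn at 3), against its mean normalised count over the 12 tumours (log axis). Red and blue points are the 162 higher and 152 lower genes with an unadjusted p-value under 0.05, and grey points all others. The cloud is centred near 0 (median −0.01) and widens at low counts, where the median standard error is 0.55.

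The genes with the largest differences were described next. Among 221 genes that had an unadjusted p-value under 0.05 and no overlap between the groups, 153 had a mean of at least 100 counts, and the 12 highest and 12 lowest of these are given. Since low p-values and absence of overlap chose them, these are descriptions, and the adjusted p-values of the 24 lay between 0.749 and 0.99984 in DESeq2. Errors are standard errors of the log2 fold change.

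Dusp23, an atypical dual-specificity phosphatase gene at chr1:172630764-172632962 (GRCm38), stood highest. Its normalised counts, given here and below in the order of tumours 1, 2 and 3, were 161, 93.7 and 145 for ctrl and 400, 253 and 287 for miR-222-3p, a log2 fold change of 1.23 ± 0.36. The lowest miR-222-3p tumour was well above the highest ctrl tumour. Vmn1r13, a pheromone receptor gene of the vomeronasal organ, had 182.7, 88.3 and 152 counts in ctrl and 389, 280 and 292 in miR-222-3p tumours (1.19 ± 0.36). Nova1, a splicing regulator of neurons, had 115, 72.4 and 142.4 counts against 265, 201 and 233 (1.09 ± 0.35). In these 3 genes ctrl tumour 2 was the lowest of the 6 tumours and miR-222-3p tumour 1 the highest.

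Zrsr1, an imprinted gene of an RNA splicing factor that lies antisense within Commd1, had 951, 839 and 1105 counts in ctrl tumours and 2073, 1536 and 2248 in miR-222-3p tumours (1.02 ± 0.50). Zbtb20, a zinc finger transcriptional repressor, had 1230, 904 and 1554 counts against 2533, 1832 and 1742 (0.73 ± 0.26). The gap between the groups was narrow for Zbtb20, between ctrl tumour 3 and miR-222-3p tumour 3, and its value was 0.20 without the correction for transcript length. Tcf7l1, a transcription factor of the Wnt pathway, had 86.4, 85.4 and 94.5 counts in ctrl tumours and 140, 186 and 139 in miR-222-3p tumours (0.80 ± 0.24). A4galt, the enzyme that makes the glycolipid Gb3, had 113, 78.3 and 88.4 counts against 157, 144 and 161 (0.73 ± 0.20), and the 3 miR-222-3p tumours lay close together. Mfsd2b, a transporter of sphingosine-1-phosphate in blood cells, had 69.9, 49.6 and 104 counts against 137, 123 and 118 (0.75 ± 0.29). The log2 fold change of 4931414P19Rik was 0.70 ± 0.22, with 138 to 180 counts in ctrl and 233 to 294 in miR-222-3p tumours, and 0.047 without that correction. Gm21992, whose exons overlap those of Rbm4 and Rbm14, had 52.4 to 126 counts in ctrl and 132 to 266 in miR-222-3p tumours (1.06 ± 0.44).

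The remaining 2 of the 12 highest genes have near-identical copies among which reads are divided. mt-Nd3, a mitochondrially encoded subunit of respiratory complex I, had 3203, 2496 and 1942 counts in ctrl tumours and 3902, 5333 and 6226 in miR-222-3p tumours (1.02 ± 0.27). It shares 345 of its 348 bases with the nuclear copy Gm28438, at 99.7% identity. The copy was given 60.8% to 66.0% of the summed reads in ctrl tumours, 30.4% to 40.4% in miR-222-3p tumours and 32.8% in miR-183-5p tumour 3. With the reads of both added, the log2 fold change of mt-Nd3 was 0.17 ± 0.24. Rps12, a protein of the small ribosomal subunit, had 1691, 967 and 982 counts in ctrl tumours and 1917, 1770 and 2691 in miR-222-3p tumours (0.81 ± 0.27). Its copy Rps12-ps3 was given 93.9% to 95.2% of their reads in ctrl tumours and 89.3% to 90.9% in miR-222-3p tumours. Added together, the Rps12 value was −0.07 ± 0.18, so neither sum differed from 0 by more than its standard error.

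Of the 12 lowest genes, 2 belong to the start of DNA replication. Orc1, a subunit of the origin recognition complex at chr4:108579423-108614833, had 249, 323 and 231 counts in ctrl tumours and 151, 114 and 179 in miR-222-3p tumours (−0.86 ± 0.29). Pola1, the catalytic subunit of DNA polymerase alpha, had 747, 1203 and 765 counts against 620, 648 and 543 (−0.58 ± 0.22). In both, ctrl tumour 2 was the highest of the 6. Dll1, a ligand of Notch receptors at chr17:15367354-15376872, had the smallest standard error of the 12, with 339, 328 and 365 counts in ctrl tumours and 214, 243 and 219 in miR-222-3p tumours (−0.61 ± 0.18, unadjusted p = 0.00062 in DESeq2). It lay between −0.67 and −0.57 when any 1 of the 6 tumours was left out, but was −0.36 without the correction for transcript length and −0.18 with the library set as a covariate.

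Atf3, a stress-induced transcription factor, had 798, 1027 and 1089 counts in ctrl tumours and 769, 635 and 549 in miR-222-3p tumours (−0.58 ± 0.24). Ctrl tumour 1 and miR-222-3p tumour 1 were nearly equal. Ak4, a mitochondrial adenylate kinase, had 1035, 943 and 1162 counts against 683, 576 and 871 (−0.56 ± 0.22). Eppk1, the cytoskeletal linker epiplakin, had 251, 376 and 342 counts against 224, 242 and 197 (−0.55 ± 0.20). Wdr78, a component of axonemal dynein, had 133 to 142.9 counts in ctrl and 69.9 to 111 in miR-222-3p tumours (−0.67 ± 0.25), and its value was −0.0080 without the correction for transcript length. Ankrd9, an ankyrin repeat gene, had 149 to 201 counts against 78.1 to 146 (−0.77 ± 0.30). Mns1, a gene of cilia and sperm flagella, had 184.1 to 293 counts against 113 to 181 (−0.64 ± 0.28), and its transcript overlaps Tex9 on the other strand. Nhej1, a factor of DNA end joining, had 115 to 164 counts against 85.5 to 106 (−0.60 ± 0.30). Its most abundant annotated transcript was 65 bases long, and without that correction its value was 0.04. The last 2 of the 12, Hbb-bs and Hba-a2, are described below with the other globins.

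**Figure D2:**
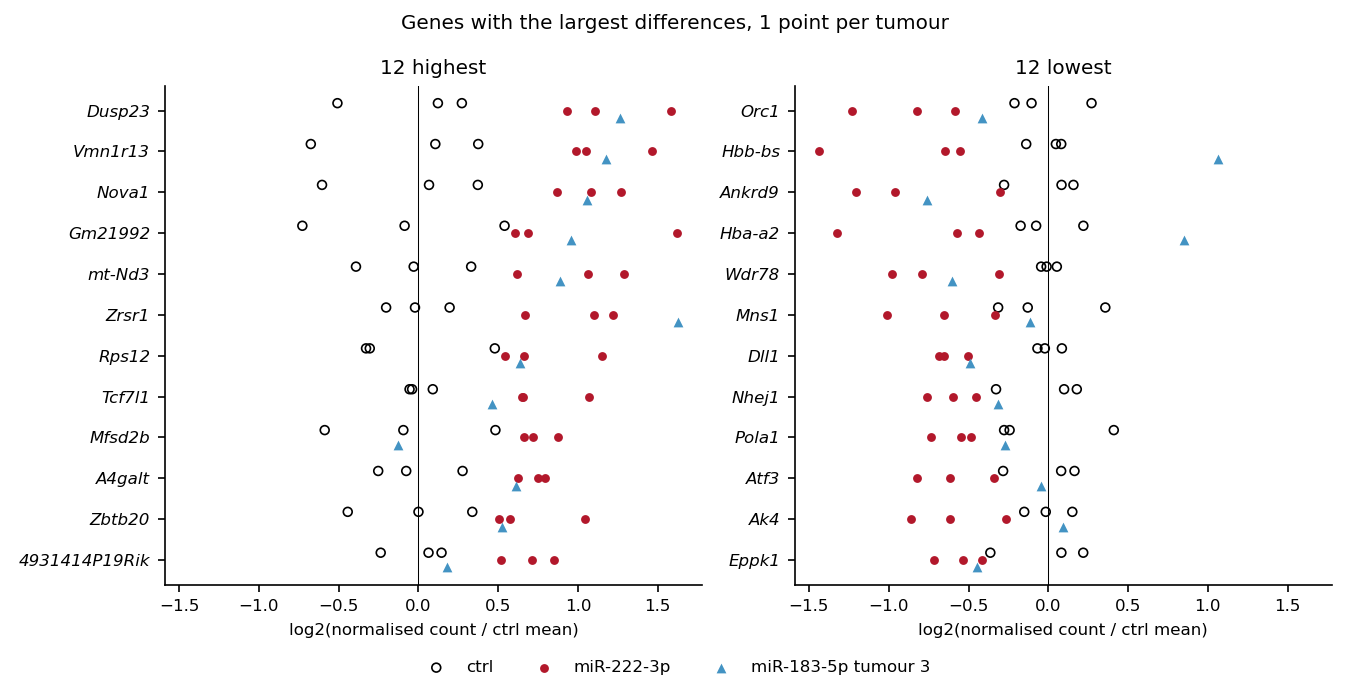
Log2 of the normalised count over the ctrl mean (horizontal axis) for the 12 highest (left) and 12 lowest (right) genes, 1 point per tumour: open circles ctrl, red circles miR-222-3p, blue triangles miR-183-5p tumour 3. By the rule that chose the genes, ctrl and miR-222-3p points do not overlap. For Zrsr1 the triangle (2977 counts) lies to the right of all miR-222-3p tumours, and for Hbb-bs (3401 counts) to the right of all ctrl tumours.

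The tumour outside the miR-222-3p group that was in the same library set, miR-183-5p tumour 3, was the highest of the 6 other miRNA tumours for 8 of the 12 highest genes, compared with 21.1% of all genes. For Zrsr1 it had 2977 counts, and the other 5 had 745 to 1213. For Dusp23 it had 320 counts, and the other 5 had 112 to 170. It was the lowest of the 6 for 0 of the 12 lowest genes, compared with 20.4% of all genes, and the highest for 3 (Hbb-bs, Hba-a2 and Ak4). With the library set as a covariate, the log2 fold change was −0.08 for Dusp23, −0.04 for Vmn1r13, −0.02 for Nova1, −0.09 for Zbtb20 and −0.92 for Zrsr1. It was 0.14 for mt-Nd3 and 0.02 for Rps12. The other 5 of the 12 had values of 0.89 (Tcf7l1), 0.88 (4931414P19Rik), 0.87 (Gm21992), 0.65 (A4galt) and 0.61 (Mfsd2b). That covariate is estimated from the miR-183-5p tumours alone, in which 1 tumour is in the low set, and what the library set contributes to these differences was not tested further.

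Among low counts, Plin4, a lipid droplet protein of adipocytes, was listed at 0 in the 3 ctrl tumours. It had 20.4, 49.3 and 59.2 counts in the miR-222-3p tumours (unadjusted p = 2.77e-05, adjusted p = 0.406 in DESeq2). The other miRNA tumours ranged from 0 in miR-183-5p tumour 1 to 77.4 counts, so that they overlapped both groups. Plin4 was named after its values were seen, as were the 5 further genes of this paragraph and those said below to be so chosen. Fam177a had 73.0, 67.2 and 0 counts in ctrl tumours and was listed at 0 in all miR-222-3p tumours, but shares nearly all of its sequence with 1700047I17Rik2. With their reads added, its log2 fold change was 0.07 ± 0.12. The odorant receptor genes Olfr729 and Olfr1124 were 1.56 ± 0.41 and 1.53 ± 0.44 higher on the log2 scale, with fewer than 100 counts in every tumour. With the library set as a covariate these values were 0.46 and 0.29. Olfr729 and Olfr1124 had 56.4 and 56.5 counts in miR-183-5p tumour 3, and at most 37.9 and 25.9 in the other 5 miRNA tumours. Of 333 odorant, vomeronasal and trace amine receptor genes tested, 7 were higher and 4 lower at an unadjusted p-value under 0.05, against 1.10% and 1.04% of all genes, and their median was −0.01, that of all genes. At moderate counts, Herc2, a giant ubiquitin ligase, had 948, 1060 and 1105 counts in ctrl and 1367, 1502 and 1531 in miR-222-3p tumours (0.50 ± 0.14). Sos2, an activator of Ras, had 1872, 2013 and 1850 counts against 2333, 2358 and 2590 (0.34 ± 0.11). Their adjusted p-values were 0.86 and 0.99984 in DESeq2, and without the length correction their values were 0.0096 and 0.19.

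To see how genes with a shared role or cell of origin compared, 30 lists were described by their counts and medians. The erythroid list stood lowest. Of its 9 listed genes, 5 passed the count filter, and all of these had an unadjusted p-value under 0.05 and were lower in miR-222-3p tumours, against 1.04% of all genes. The 5 genes were read in the same tumours and some share sequence, so they are not 5 independent results. Their median log2 fold change was −0.83, and it was between −0.93 and −0.60 when any 1 of the 6 tumours was left out. On such removal the largest unadjusted p-value in DESeq2 was 0.0074 for Hbb-bt and 0.12 to 0.22 for the others. With the library set as a covariate the median was −1.46, and miR-183-5p tumour 3, on which that covariate rests, had the highest Hbb-bs count of the 12 tumours (3401).

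Hbb-bs, the adult beta globin at chr7:103826534-103828096, had 1679, 1476 and 1719 counts in ctrl tumours and 1036, 600 and 1107 in miR-222-3p tumours (−0.83 ± 0.36). Hbb-bt, the other adult beta globin, had 87.8, 75.4 and 94.1 counts against 40.1, 31.2 and 39.2 (−1.22 ± 0.36). Hba-a2, an alpha globin, had 567, 530 and 696 counts against 401, 239 and 442 (−0.73 ± 0.31). Tumour 2 was the lowest of the miR-222-3p tumours in all 3. Hba-a1, the other alpha globin, overlapped between the groups, with 332 to 523 counts in ctrl and 164 to 336 in miR-222-3p tumours (−0.69 ± 0.35). Alas2, the erythroid enzyme of haem synthesis, had 25.5 to 42.1 counts against 11.4 to 23.1 (−0.92 ± 0.42), with no overlap, and it overlaps Apex2 on the other strand. Hba-a1 and Alas2 were chosen after their values were seen. Reads of the alpha globins may be divided between near-identical transcripts, and their sum was −0.71 ± 0.31. Summed over the list, the level was 361 to 450 TPM in ctrl and 151 to 272 TPM in miR-222-3p tumours. In whole tumours, fewer cells of a type and less RNA per cell cannot be told apart. None of the 5 genes passed adjustment over all genes (0.99984 in DESeq2).

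The fibroblast and matrix list stood highest, but its tumours did not separate. Of its 26 genes, 24 had a positive value, with a median of 0.45. At an unadjusted p-value under 0.05 there were 2 (7.69%, against 2.14% of all genes), both higher. The groups did not overlap for 1, Dcn, against 5.29% of all genes. Dcn, the small proteoglycan decorin, had 367, 474 and 449 counts in ctrl tumours and 578, 582 and 722 in miR-222-3p tumours (0.54 ± 0.20). Mmp2, a collagen-degrading protease of stromal cells, had 598, 745 and 516 counts against 541, 1239 and 1246 (0.70 ± 0.31). Col1a1, a chain of type I collagen, had 11814, 22188 and 8886 counts against 7514, 22058 and 41994 (0.74 ± 0.66). The lowest of these 6 Col1a1 values was that of miR-222-3p tumour 1 and the highest that of miR-222-3p tumour 3. Postn, the matrix protein periostin, had 4370, 6494 and 3689 counts against 3739, 6595 and 9818 (0.47 ± 0.33). Col1a1 and Postn were named after their values were seen. Without miR-222-3p tumour 3 the median of the list was 0.03, without ctrl tumour 3 it was 0.28, without ctrl tumour 2 0.74 and without miR-222-3p tumour 1 0.73.

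**Figure D3:**
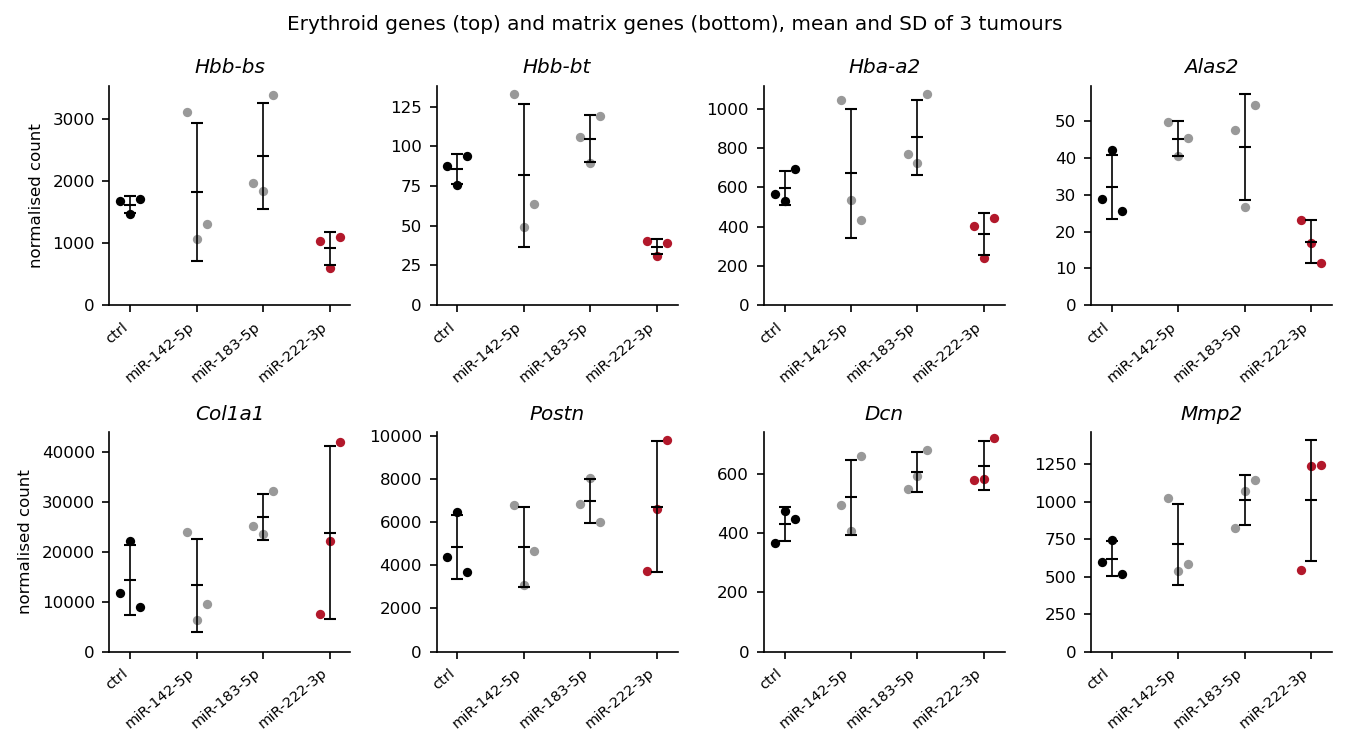
Normalised counts (linear axes from 0) of 4 erythroid genes (top) and 4 fibroblast and matrix genes (bottom) in the 4 groups, 1 point per tumour, with the mean and SD of 3 tumours as bars. The Hbb-bs points of the 3 miR-222-3p tumours (600 to 1107) lie below the 3 ctrl points (1476 to 1719), while for Col1a1 the miR-222-3p tumours (7514 to 41994) reach beyond both ends of the ctrl range (8886 to 22188).

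The study asked how such EVs bear on tumour macrophages, so immune cell lists were examined. Of 25 macrophage identity genes, 0 had an unadjusted p-value under 0.05 in DESeq2, against 2.14% of all genes. Their median log2 fold change was −0.00 in that list. Fcgr1, a high-affinity Fc receptor, had 2080, 1896 and 1645 counts in ctrl and 1705, 1930 and 1217 in miR-222-3p tumours (−0.21 ± 0.21), and the groups overlapped. Summed over the list, the level was 4804 to 7825 TPM in ctrl and 4704 to 8339 TPM in miR-222-3p tumours, ranges that overlapped.

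Genes read as marks of macrophage polarisation did not separate the groups. Arg1, the arginase of alternatively activated macrophages, had 8828, 6493 and 7798 counts in ctrl tumours and 6272, 6626 and 7981 in miR-222-3p tumours (−0.15, 95% interval −0.67 to 0.38). Nos2, the inducible nitric oxide synthase of classically activated macrophages, had 1617, 2813 and 1707 counts against 991, 2443 and 2742 (0.01, interval −1.13 to 1.15). For Nos2 the miR-222-3p tumours ranged from below all ctrl tumours to just under the highest, and for Arg1 the groups also overlapped. Tgfb1, a growth factor that dampens immune responses, was 0.16 (interval −0.13 to 0.44), with 1845 to 2353 counts in ctrl and 1993 to 2405 in miR-222-3p tumours. Il1b, an inflammatory cytokine, was 0.20 (interval −0.27 to 0.67), with 2740 to 3873 counts against 3638 to 4378. Unadjusted p-values in DESeq2 were 0.583, 0.987, 0.292 and 0.403 in that order.

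Lists of macrophage states that the study took from earlier work were also described. Of 112 tested genes of its tumour-associated macrophage list, 2 had an unadjusted p-value under 0.05 in DESeq2 (1.79%, against 2.14% of all genes). They were the zinc finger gene Zfp691 (0.58 ± 0.29, and 0.11 without the length correction) and Fmn1, an actin-assembling formin (−0.55 ± 0.18, and 0.01 without it). The median was −0.02. In the M1 list, of macrophages polarised in culture (537 tested genes), 3 were higher and 7 lower at that threshold, a share of 1.86% against 2.14% of all genes, with a median of −0.03. Traf2, an adaptor of tumour necrosis factor receptors, was among them, with 1053, 934 and 959 counts in ctrl and 786, 793 and 869 in miR-222-3p tumours (−0.27 ± 0.10). In the matching M2 list of 332 genes, 5 were higher and 0 lower (1.51%), with a median of −0.02. Among the 5 were Dusp23 and Rhoj, a small GTPase of endothelial cells, which had 1155, 869 and 938 counts against 1187, 1504 and 1282 (0.42 ± 0.14).

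Other cell types gave few differences. Of 24 neutrophil and myeloid suppressor genes, 1 had an unadjusted p-value under 0.05 in DESeq2 (4.17%, against 2.14% of all genes). That gene was Ltf (lactoferrin of neutrophil granules). It had 297, 99.8 and 317 counts in ctrl and 105, 117 and 152 in miR-222-3p tumours (−0.93 ± 0.39), with ctrl tumour 2 below all others. Padi4, an enzyme that citrullinates histones in neutrophils, was −0.26 ± 0.15. No gene of the lists for T and NK cells (27 tested), B and plasma cells (7), dendritic cells and MHC class II (19), endothelial cells (20) or carcinoma epithelium (19) reached that threshold in DESeq2. Their medians were 0.15, −0.22, 0.03, 0.08 and −0.08. The interferon gene Ifng was 0.51 ± 0.45 and Cd8b1, a coreceptor chain of cytotoxic T cells, 0.37 ± 0.39. Cd22 of B cells varied from 57.6 to 402 counts within ctrl (−0.63 ± 1.23), and Jchain of plasma cells had 19.9 to 115 counts in ctrl and 56.5 to 120 in miR-222-3p tumours. DESeq2 gave no p-value for Jchain, which had 2494 counts in 1 tumour outside the comparison.

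In the dendritic cell list, Clec9a, a receptor for dead cells, had 44.1, 55.9 and 63.8 counts in ctrl and 45.4, 29.5 and 19.5 in miR-222-3p tumours (−0.79 ± 0.45). Batf3, a transcription factor of cross-presenting dendritic cells, had 92.1, 104 and 76.3 counts against 69.95, 68.4 and 67.1 (−0.40 ± 0.26). Batf3 did not overlap between the groups but Clec9a did. In the endothelial list, Flt1, a receptor of vascular endothelial growth factor, had 1896, 2076 and 2009 counts against 1699, 1543 and 1773 (−0.25 ± 0.13, no overlap), and Sox18, a vascular transcription factor, was 0.37 ± 0.29. The epithelial Krt8 and Grhl2, a regulator of epithelial identity, were −0.28 ± 0.15 and 0.18 ± 0.17.

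Tissues that can be caught with a tumour under the skin were also listed, and their genes lay on both sides of 0. Of 16 keratinocyte and hair follicle genes, 5 passed the count filter. Krt15, a keratin of basal cells, was lower with no overlap, at 24.1 to 33.7 against 12.5 to 14.99 counts (−1.08 ± 0.47), and Trp63, a basal cell regulator, was 0.34 ± 0.62. The 14 tested muscle genes had a median of 0.09, with the troponin Tnni2 at 0.23 ± 0.33 and the enolase Eno3 at −0.12 ± 0.20. Of 10 tested adipocyte genes 8 were negative, with a median of −0.18. Cidec, a lipid droplet protein chosen after its values were seen, had 11.02 to 34.1 counts in ctrl and 7.54 to 10.4 in miR-222-3p tumours (−1.46 ± 0.63). The adipokine Cfd and the lipid droplet coat protein Plin1 were −0.50 ± 0.52 and 0.49 ± 0.56.

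Among tumour programmes, the interferon response leaned one way without separating the groups. Of its 37 genes, 36 had a negative value, with a median of −0.21. Yet 0 had an unadjusted p-value under 0.05 in DESeq2 and 0 had groups that did not overlap, against 2.14% and 5.29% of all genes. Iigp1, a GTPase against intracellular parasites, had 11126, 13141 and 8666 counts in ctrl and 8166, 10602 and 5278 in miR-222-3p tumours (−0.45 ± 0.23). Tap1, a peptide transporter of MHC class I presentation, had 6874, 8417 and 5190 counts against 4831, 6666 and 5092 (−0.30 ± 0.19). Ctrl tumour 2 was the highest in both, and without it the median of the list was 0.09. Without ctrl tumour 3 it was −0.40, and without miR-222-3p tumour 1 or 3 −0.13 or −0.10. Genes of glycolysis and hypoxia were negative in 22 of 26, with a median of −0.19 that lay between −0.22 and −0.10 (without ctrl tumour 1) when 1 tumour was left out. Of the 26, 0 had an unadjusted p-value under 0.05 in DESeq2 and 1 had groups that did not overlap, against 2.14% and 5.29% of all genes. Slc2a1, the main glucose transporter, had 6537, 7208 and 6748 counts against 4551, 4474 and 6543 (−0.40 ± 0.25). Pfkp, a phosphofructokinase of glycolysis, had 6250 to 6688 counts against 5640 to 5925, with no overlap (−0.18 ± 0.13).

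For the 32 cell cycle genes the median was −0.13. It was 0.16 without ctrl tumour 2, 0.01 without miR-222-3p tumour 1, and −0.32 and −0.30 without ctrl tumour 3 and miR-222-3p tumour 2. Mcm6, a subunit of the replicative helicase, had 4198, 6359 and 3836 counts against 3169, 4086 and 3381 (−0.44 ± 0.21), and Ccne2, cyclin E2, was −0.40 ± 0.23. In each of the lists of inflammatory signalling, 1 gene had an unadjusted p-value under 0.05 in DESeq2 (3.85% and 4%, against 2.14% of all genes). Nfkb2, a subunit of NF-kB, had 2118, 2509 and 2302 counts against 1823, 1753 and 2058 (−0.30 ± 0.13), and Cx3cl1, the chemokine fractalkine, had 2956, 3389 and 3011 against 2623, 2473 and 2222 (−0.35 ± 0.12). Neither overlapped between the groups, but with the library set as a covariate the values were −0.06 for Nfkb2 and −0.18 for Cx3cl1. Their lists had medians of 0.01 (26 genes, 12 of them negative) and −0.03 (25 genes, 15 negative). The chemokine Ccl12 was −0.22 ± 0.17 and the adhesion molecule Icam1 −0.27 ± 0.17.

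Stress and metabolic lists had medians within 0.08 of 0 on the log2 scale. In the unfolded protein and integrated stress response list (27 genes, median −0.05), the cystine transporter Slc7a11 was 0.52 ± 0.29. Atf3 was the 1 gene of that list with an unadjusted p-value under 0.05 in DESeq2 (3.70%, against 2.14% of all genes). In heat shock (14 genes, −0.07), the chaperone Hsp90aa1 had 22041, 28001 and 25790 counts in ctrl and 19966, 20743 and 21036 in miR-222-3p tumours (−0.30 ± 0.15), and Hspd1 was −0.21 ± 0.13. In immediate early genes (20, median 0.01), Jun was −0.35 ± 0.19. Jun and Atf3 lay wholly below ctrl in that list and Zfp36 wholly above, against 2.51% and 2.78% of all genes. In cholesterol and fatty acid synthesis (27, −0.04), Acaca, the enzyme that makes malonyl-CoA, was −0.39 ± 0.18 and Acly −0.23 ± 0.14. The heat shock, immediate early and cholesterol lists each held 1 gene with an unadjusted p-value under 0.05 in DESeq2. These were Hsp90aa1 (7.14%), Atf3 again (5%) and Acaca (3.70%), against 2.14% of all genes. Polk, a DNA polymerase among 19 p53 targets (median −0.03), was −0.24 ± 0.14. The mitochondrially encoded list had a median of 0.08 over 13 genes, in which mt-Nd6, another complex I subunit, had 5134, 4588 and 4821 counts against 7058, 6138 and 7434 (0.50 ± 0.22), with no overlap. With the library set as a covariate the mt-Nd6 value was 0.21. In that list 2 genes, mt-Nd3 and mt-Nd6, had an unadjusted p-value under 0.05 in DESeq2 (15.4%, against 2.14% of all genes). Both were without overlap, but mt-Nd3 was 0.17 ± 0.24 with the reads of its copy added. mt-Atp8 and mt-Co3 were 0.06 ± 0.19 and −0.02 ± 0.23, and Lgals1 −0.22 ± 0.20.

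In signalling and vesicle lists, likewise, few genes differed. Of 24 genes of TGF-beta and epithelial-mesenchymal transition (median 0.04), the ligand Tgfb2 was 0.54 ± 0.30 and the matrix protein Tgfbi 0.37 ± 0.27. Of 22 matrix metalloproteinases and inhibitors (0.16), 1 had an unadjusted p-value under 0.05 in DESeq2 (4.55%, against 2.14% of all genes). It was Mmp2, already counted in the fibroblast and matrix list. Mmp15, a membrane-bound protease, had 157 to 178 counts against 193 to 233 (0.38 ± 0.20). In this list Mmp15 lay wholly above ctrl and Adam17 wholly below, 1 gene each way, against 2.78% and 2.51% of all genes. Of 31 PI3K-AKT signalling genes (−0.03), the transcription factor Foxo1 was 0.25 ± 0.15 and the kinase Mtor −0.32 ± 0.22. For 24 EV genes (−0.01), Vps4a, an ATPase of membrane scission, had 1144 to 1232 counts against 1280 to 1335 (0.16 ± 0.10). Lamp2, a membrane protein of lysosomes, was 0.14 ± 0.11, and the protease Ctsh of the lysosome list (25 genes, −0.01) 0.18 ± 0.14. Among 21 genes of miRNA processing and silencing (median 0.00), Tsn was −0.36 ± 0.22 and Snd1, a nuclease linked to the silencing complex, −0.08 ± 0.08.

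**Figure D4:**
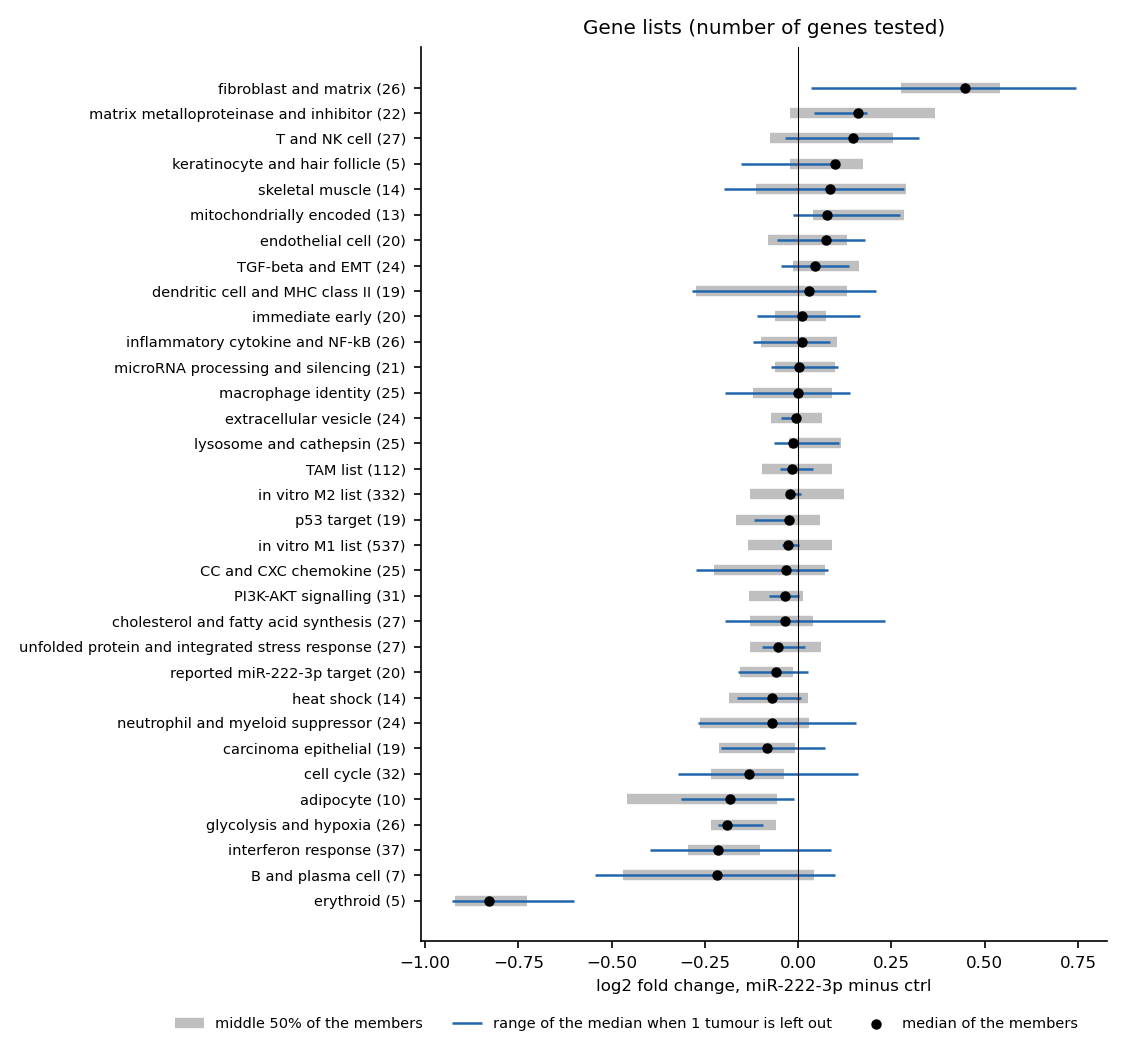
Median log2 fold change (miR-222-3p minus ctrl, horizontal axis) of each gene list, with the number of genes tested. Points are medians over the members, grey bars the middle 50% of the members and blue lines the range of the median when 1 tumour is left out. The erythroid list (−0.83) lies apart on the left, and the line of the fibroblast and matrix list (median 0.45) reaches down to 0.03.

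To ask whether messages with seed matches differed, reported targets of miR-222-3p were examined first, and sites of 5 are shown because pairing there is the known mode of action. Each run is 23 bases of the 3′ UTR of the most abundant transcript, on GRCm38, and capitals mark the match, ATGTAGC or, where an A follows, ATGTAGCA (an 8mer).
Cdkn1b, chr6:134924416-134924438, plus strand: ctctaaaagcattggATGTAGCA
Kit, chr5:75654977-75654999, plus strand: aatgatgggagatatATGTAGCA
Kit, chr5:75656508-75656530, plus strand: tttgtaaatattgaaATGTAGCA
Bbc3, chr7:16317316-16317338, plus strand: gactttttctgcaccATGTAGCA
Bcl2l11, chr2:128162351-128162373, plus strand: gtcagaacccagcgtATGTAGCA
Timp3, chr10:86348270-86348292, plus strand: aatttaaaatcatttATGTAGCt

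Of 21 listed targets 20 passed the count filter (Cdkn1c did not). None of the 20 had an unadjusted p-value under 0.05 in DESeq2, against 2.14% of all genes. Of the 20, 15 had a negative and 5 a positive value. The median was −0.06 and lay between −0.16 (without miR-222-3p tumour 1) and 0.03 (without ctrl tumour 3) when 1 tumour was left out. Cdkn1b, the inhibitor p27, had 3215, 3187 and 3666 counts in ctrl and 3456, 3356 and 2968 in miR-222-3p tumours (−0.04, 95% interval −0.26 to 0.18). The groups overlapped, and the interval lay well within 1 log2 unit of 0. Kit, the receptor of stem cell factor, had 399, 187 and 609 counts against 707, 207 and 356 (0.09 ± 0.43), with both groups widely spread. Bbc3, the cell death protein PUMA, was the lowest of the list, with 147, 118 and 219 counts against 105, 131 and 107 (−0.50 ± 0.28). Its highest miR-222-3p tumour was above the lowest ctrl tumour.

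The other targets with a match to the whole seed (positions 2 to 8) were Bcl2l11, the cell death protein BIM (0.00 ± 0.24), Timp3, an inhibitor of metalloproteinases (−0.05 ± 0.17), and the oestrogen receptor Esr1 (−0.16 ± 0.20). Ets1 and Trps1, both transcription factors, were −0.14 ± 0.24 and −0.18 ± 0.26. Ddit4, an inhibitor of mTORC1, was −0.21 ± 0.20 and Sod2, the mitochondrial superoxide dismutase, 0.17 ± 0.20. A weaker match was found for Foxo3 (−0.14 ± 0.12), Ppp2r2a (−0.04 ± 0.11), Stat5a (−0.02 ± 0.18), Pik3r1 (−0.07 ± 0.18), Apaf1 (−0.03 ± 0.22) and Dicer1 (−0.11 ± 0.16). Icam1 also had the weaker match, and its counts were 1448, 1466 and 1720 in ctrl and 1313, 1409 and 1119 in miR-222-3p tumours, with no overlap. Reck and Mgmt had none in this UTR and were −0.15 ± 0.44 and 0.30 ± 0.39. Mgmt did not overlap either, with 23.2 to 26.6 counts in ctrl and 28.2 to 34.4 in miR-222-3p tumours. Of the 20 targets, 1 lay wholly below ctrl (Icam1) and 1 wholly above (Mgmt), against 2.51% and 2.78% of all genes. The absence of a match says only that these letters are not in the UTR searched.

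Over all genes with a 3′ UTR (14510), the medians of the seed classes lay close together. Genes with an 8mer numbered 489, with a median log2 fold change of −0.01, and 0 of them were lower and 9 higher (1.84% in all) at an unadjusted p-value under 0.05 in DESeq2. Over all 14510 genes 150 were lower and 156 higher (2.11%). The 895 genes with ATGTAGC but no 8mer had a median of −0.02, the 926 with TGTAGCA of −0.03, the 1924 with TGTAGC alone of −0.02 and the 10276 with none of −0.00. Genes with ATGTAGC (1384) minus all others (13126) differed by −0.01 in their medians, and by −0.06, −0.07 and 0.04 without ctrl tumour 1, miR-222-3p tumour 1 and miR-222-3p tumour 3. Genes with matches had longer 3′ UTRs, with a median of 2944 bases for an 8mer and 654 bases for none. Within UTRs of similar length the medians were again near 0, the largest difference from 0 being −0.02.

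**Figure D5:**
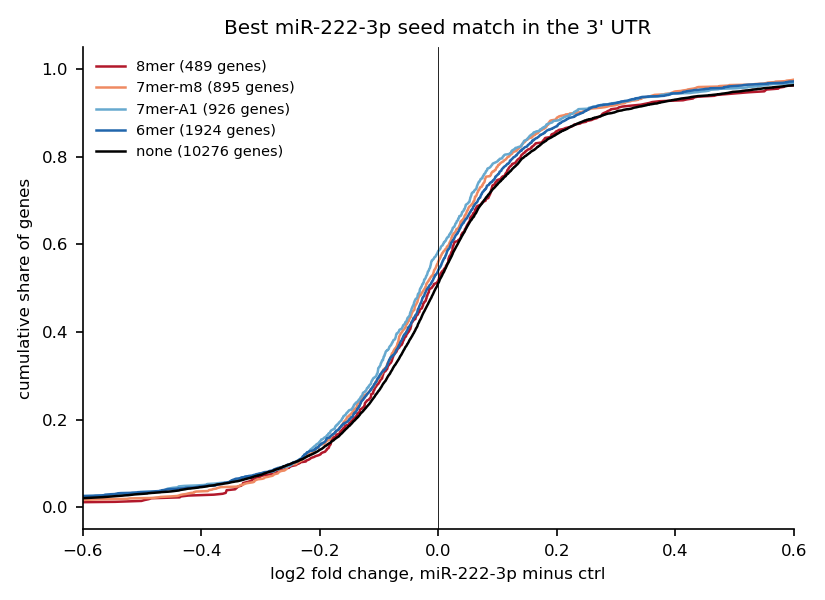
Cumulative share of genes (vertical axis) by log2 fold change, miR-222-3p minus ctrl (horizontal axis), for genes grouped by the best match of the 3′ UTR to the miR-222-3p seed. The curves run close together, with medians between −0.03 and −0.00.

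To see how miR-222-3p tumours compared with tumours given the other miRNAs, they were set against the mean of the miR-142-5p and miR-183-5p groups. Since both comparisons use the same miR-222-3p tumours, the values are set side by side and lend no independent support. DESeq2 called 0 of 14664 genes (0%), with a smallest adjusted p-value of 0.358. At an unadjusted p-value under 0.05 there were 286 genes (1.95%), 154 higher (1.05%) and 132 lower (0.900%).

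The erythroid genes were lower here as well. All 5 had an unadjusted p-value under 0.05, with a median of −1.20 against −0.83 in the comparison with ctrl. Hbb-bt was −1.33 ± 0.32 (unadjusted p = 2.89e-05, adjusted p = 0.358 in DESeq2), Hbb-bs −1.20 ± 0.31 and Hba-a2 −1.07 ± 0.27. The other miRNA tumours had 1060 to 3401 counts of Hbb-bs, so the lowest of them lay within the miR-222-3p range of 600 to 1107. The fibroblast and matrix list had a median of 0.16 in place of 0.45, and the interferon list −0.09 in place of −0.21. Of the highest genes, Dusp23 was 0.89 ± 0.31, Vmn1r13 0.91 ± 0.31 and Rps12 0.75 ± 0.23. Without miR-183-5p tumour 3, DESeq2 called 5 genes, which were Zrsr1, Dusp23, Vmn1r13, Zbtb20 and Rps12, all higher in miR-222-3p tumours, with adjusted p-values between 3.84e-06 and 0.0493. That tumour is the only one of the other 6 in the low library set, so without it set and treatment cannot be told apart. In the fit of all 12 tumours, Rps12 with the reads of its copy added was −0.03 ± 0.16. Without miR-142-5p tumour 2, DESeq2 called 3 genes, Hbb-bt (−1.46, adjusted p = 0.00699), Hbb-bs (−1.34, 0.0191) and Cd209c. The tumour left out had the lowest Hbb-bt and Hbb-bs counts of the other miRNA tumours (49.0 and 1060), so its removal widens these differences. Leaving out miR-142-5p tumour 3 gave 1 call, Hba-a2 (−1.19, with 0.0403 as its adjusted p-value), and leaving out tumour 1 of that group gave 1, Fam177a. Each was again the lowest of the other miRNA tumours for the gene called (432 counts of Hba-a2 and 0 of Fam177a). Of the lowest genes, Orc1 was −0.31 ± 0.25, Dll1 −0.24 ± 0.16 and Pola1 −0.30 ± 0.19. For Arg1 the value was −0.42 ± 0.23 and for Nos2 −0.30 ± 0.50.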

How the data were processed

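Polyadenylated RNA of each tumour was sequenced from a stranded library. The authors quantified reads with Salmon on GRCm38, per the labels, and deposited for each transcript an estimated count, a TPM and an effective length. The strand setting is not given in the sources used here. Of 118783 transcripts, 116710 (98.3%) matched GENCODE genes. Salmon splits reads between similar transcripts, so copies of a gene can trade reads. Gene sums of the estimated counts were rounded, and a protein-coding gene was tested where 3 or more of the 12 libraries held 10 or more reads. DESeq2 1.42.0 (R 4.3.3, Wald test, group as factor, mean transcript length as offset, 12 libraries, Benjamini-Hochberg adjustment, threshold 0.05) was the main test, and edgeR 4.0.16 an alternative. Normalised counts are on the scale of DESeq2. The study describes the libraries of a group as separate tumours, and the labels do not state whether each came from its own mouse, so p-values measure the spread between these tumours. Library pairs within a group were not copies, with a chi-square per degree of freedom of 29.0 to 61.7. Sequences were compared with BLAST 2.17.0. Tables and plots were made with Python 3.11.15, numpy 2.4.6, pandas 2.3.3 and matplotlib 3.10.9.

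Genes named were the 12 highest and 12 lowest as defined in the text, genes the study measured by RT-qPCR, the 2 members of each list with the largest Wald statistic and at least 20 counts, all reported targets, and the 3 genes with the most reads per length. The members, lists and rule were chosen with earlier results of these data known. Some genes covered by the rule were left out of the text. Alternatives were other normalisations, filters, gene classes and thresholds, no length offset, the 2 groups alone, the replicate number as a block, a library-set covariate (share of Gm28661 under 1%), reads of copies added, and each tumour left out. Adding the reads of the further copies of mt-Nd3, Rps12, Hba-a2 and Fam177a was chosen after seeing the data. The DESeq2 test was checked on counts simulated from the main fit. It called 41, 37, 48 and 44 of 50 genes set to 1, −1, 2 and −2 log2 units at an adjusted p-value under 0.05. The changed genes had a mean of at least 20 counts, and the draws held no difference between library sets. Genes that are truly changed also ease the adjustment for the others, so these rates may not hold for the real comparison. The test also called 40 of 14506 unchanged genes, so some genes called under the alternatives may be unchanged.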

Additional observations from a re-analysis of the deposited data

How the results depend on the processing

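The 0 genes called in miR-222-3p against ctrl tumours became 4 with all annotated genes, 5 with the 2 groups alone (Plin4, Zrsr1, Cacna1g, Dusp23 and mt-Nd3), 1 with the replicate block (Plin4) and 13 with the library-set covariate. The 4 were Gm5537, Gm28437, Gm7666 and Gm10925, copies of other genes. Leaving out 1 tumour gave 0 to 1 (Adnp, without miR-222-3p tumour 1). The 314 genes at an unadjusted p-value under 0.05 became 262 to 767 (767 without miR-222-3p tumour 1 and 637 without ctrl tumour 1), and the 778 without overlap 1511 to 2686, where fewer tumours make overlap less likely. Against the other miRNA groups, 0 became 6 with all annotated genes, 2 with the replicate block (Hbb-bs and Hba-a1), 26 with the library-set covariate and 0 to 5 with 1 tumour left out (5 without miR-183-5p tumour 3 and 3 without miR-142-5p tumour 2). The library-set covariate rests on 1 tumour, miR-183-5p tumour 3, in which muscle genes were high (696 TPM summed, 145 to 196 TPM in the other 11).

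Deviations from the group mean of same-numbered ctrl and miR-222-3p tumours correlated at −0.28, 0.40 and −0.41. The highest value of any pair was 0.68, for ctrl tumour 3 and miR-222-3p tumour 1. With 3 tumours per group these values cannot settle whether the replicate numbers mark pairs. Of 114 named genes with a p-value, 48 had one under 0.05 in DESeq2, and 9 of these changed sign under some setting, as did 29 of the other 66. With the library-set covariate the log2 fold change was −0.077 for Dusp23, −0.036 for Vmn1r13, −0.022 for Nova1, −0.92 for Zrsr1, −0.094 for Zbtb20, 0.19 for Arg1, −0.34 for Nos2, −0.13 for Tgfb1, 0.0099 for Fcgr1, 0.089 for Padi4, 0.98 for Cd22, −1.01 for Tnni2, −0.19 for Plin1, 0.12 for Cdkn1b, 0.035 for Timp3, 0.0038 for Foxo3, 0.16 for Trps1, 0.19 for Stat5a, 0.34 for Pik3r1, 0.41 for Apaf1, 0.12 for Dicer1, −0.044 for Tgfb2 and 0.29 for mt-Co3. Without the length offset it was 0.040 for Nhej1, 0.013 for Stat5a, 0.34 for Reck and 0.013 for Fmn1. With reads of further copies added it was −0.071 for Rps12 and 0.069 for Fam177a, and with the replicate block −8.6e-05 for Bcl2l11 and 0.014 for mt-Co3.

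With 1 tumour left out, values ranged from −0.25 to 0.34 for Nos2, −0.045 to 0.88 for Ifng, −1.94 to 0.57 for Cd22, −0.17 to 0.98 for Trp63, −1.10 to 0.0045 for Cfd, −0.086 to 0.028 for Cdkn1b, −0.50 to 0.54 for Kit, −0.12 to 0.035 for Timp3, −0.22 to 0.30 for Bcl2l11, −0.29 to 0.0056 for Esr1, −0.11 to 0.027 for Ppp2r2a, −0.46 to 0.13 for Trps1, −0.14 to 0.13 for Stat5a, −0.056 to 0.34 for Sod2, −0.21 to 0.11 for Pik3r1, −0.13 to 0.17 for Apaf1, −0.50 to 0.15 for Reck, −0.38 to 0.0069 for Ddit4, −0.015 to 0.18 for mt-Atp8 and −0.15 to 0.27 for mt-Co3. The causes were not tested. Depth limits genes under 100 counts, whose median standard error was 0.55.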
